A study of Mus musculus with 54 samples.

Results

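H2K mouse myogenic progenitors that carry the emerin mutant Δ95–99 were compared before differentiation (day 0, T=0) and after 24 h in differentiation medium (day 1, T=24). Of the 54 samples of the series, 6 belong to this transition, with 3 labelled replicates (Del9599) on each day. All genes of the table that sets these groups against each other were used, 17542 in number. Both groups are EMD-/y cells, so they lack the mouse emerin gene product, and both were transduced with a lentivirus for Δ95–99 emerin and kept under puromycin. The methods describe no cloning step, and the promoter that drives the construct is not given in the sources used here. At day 0 the cells had spent a night at high density in proliferative medium with fetal bovine serum, chick embryo extract and γ-interferon. At day 1 they had been in medium with horse serum and without interferon, and the methods also give a warmer incubator for differentiation than for growth, whereas the labels give a single temperature. Day, serum, interferon and temperature therefore cannot be told apart. Wildtype progenitors and EMD-/y progenitors (6 samples each over the same days) had the same change of medium, without the virus, and for them the labels name no puromycin. The methods also give a lower seeding density for these 2 lines than for the emerin mutant lines. Virus, selection and density therefore cannot be told apart where Δ95–99 is set beside either of them. The +EMD, S54F and Q133H lines, transduced with wildtype emerin or with another mutant, contribute 6 samples each, and Δ95–99 progenitors at day 2 contribute 3.

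Emerin is a protein of the inner nuclear membrane that binds lamins and chromatin regulators, and its loss or mutation causes Emery–Dreifuss muscular dystrophy. When myogenic progenitors are moved to medium poor in mitogens, they normally leave the cell cycle, express myogenin, and then switch on contractile genes and fuse into myotubes. H2K progenitors are commonly grown with γ-interferon because it drives their immortalising gene, so its removal is itself part of the change of medium. γ-Interferon induces genes for guanylate-binding proteins, antigen presentation and chemokines.

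The table gives a single value per gene and day, called the level here, which is the authors' normalised count for the group. The levels summed to 18985715 at day 0 and 18657439 at day 1, and the 10 highest genes held 6.59% and 5.78% of these sums. No value per sample is given, so no spread between replicates, no SD and no test can stand beside any value below, and a difference between lines was likewise not tested. A gene was called higher or lower when log2((day 1 level + 1)/(day 0 level + 1)), the log2 ratio, was at least 1 in size, a 2-fold difference, and the larger level was at least 10. Pairs of levels are given with day 0 first and day 1 second. The 811 genes with the smallest averages of both columns (0.152 to 0.180) were all listed above 0 on both days, at values that differed by 1.12-fold to 1.14-fold, whereas among the 4461 genes with an average under 10 the widest difference was 14.9-fold. The provider's formula is not given in the sources used here, and the ratios of the lowest genes may be understated. In bulk RNA, fewer cells that express a gene and less of its RNA per cell cannot be told apart.

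Of 13315 genes with a larger level of at least 10, 974 (7.32%) were at least 2-fold higher at day 1 and 891 (6.69%) were at least 2-fold lower. Counts of list members in this transition are to be read beside these shares. The median log2 ratio over all of them was -0.00212. Emd, which encodes emerin, was listed at 0.773 at day 0 and 0.577 at day 1, against 1888 and 1755 in the wildtype table, which was normalised separately. In the +EMD line, transduced with wildtype emerin, Emd was likewise listed at 0.268 and 0.376. On the paper's blots of proliferating cells, both of these lines held emerin protein in amounts close to wildtype. The low Emd level therefore does not show that the construct was silent. Whether the transcript of the Δ95–99 construct could align to the mouse gene was not tested. Markers of the labelled cell type were present in both groups. Myod1 stood at 12413 and 11406, Des at 11177 and 12224, and Cdh15 at 4765 and 8831, and 0 of 12 such markers differed 2-fold between the days. Some markers of other cell types were under 2 on both days, with Ptprc (leukocytes) at 0.917 and 0.808, Cdh5 (endothelium) at 1.01 and 0.987, and Adipoq (adipocytes) at 0.181 and 0.159. Others were higher, such as Runx2 (1633 and 933) and Sox9 (999 and 847) of the cartilage and bone list.

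**Figure D1:**
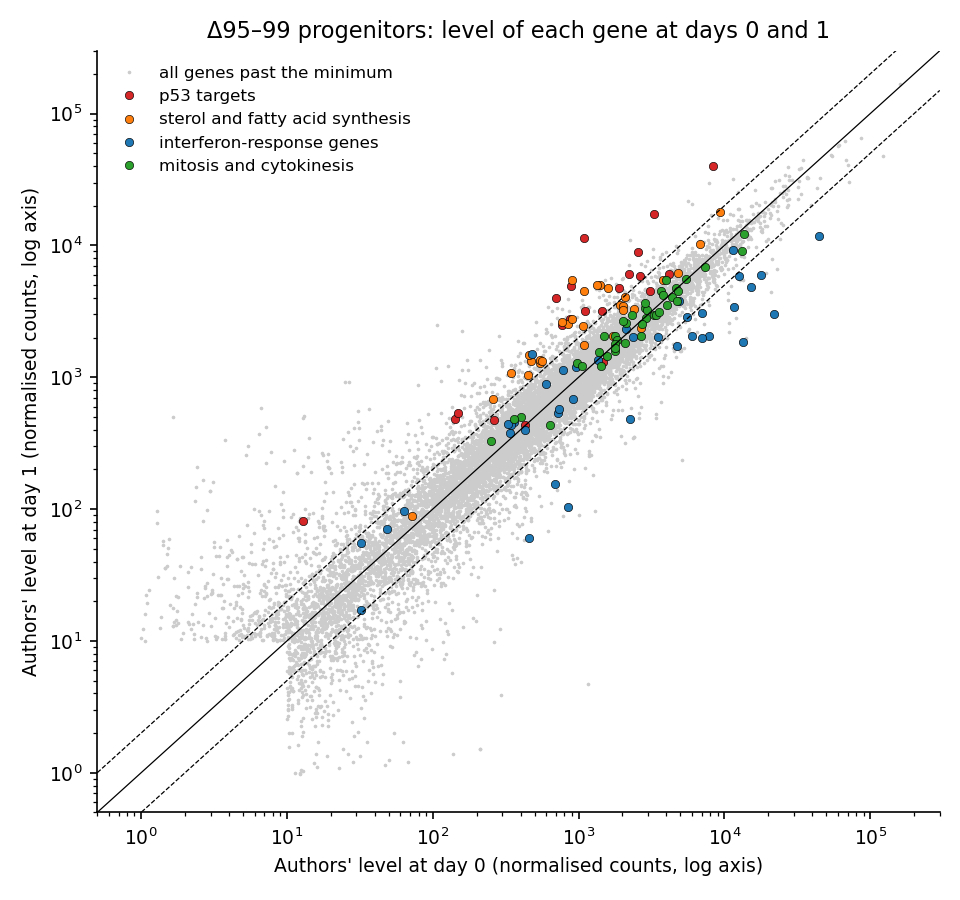
Level of each gene in Δ95–99 progenitors at day 0 (horizontal, normalised counts, log axis) and day 1 (vertical, same unit, log axis). Grey points are the 13315 genes past the minimum, the solid line marks equal levels and the dashed lines 2-fold; p53 targets and sterol genes lie mostly above, interferon-response genes mostly below, and all 40 genes of mitosis between the dashed lines.

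The transcription factor p53 activates genes that halt the cell cycle or start cell death. Of 21 p53 targets, 16 were at least 2-fold higher at day 1, against 7.32% of all genes, and 0 were lower. The median log2 ratio was 1.66, with a range from -0.17 to 3.38. Trp53inp1, a p53 partner in stress and autophagy, had the widest difference, from 1088 to 11357 (10.4-fold). Mdm2, which encodes the ubiquitin ligase that degrades p53, stood at 3316 and 17403 (5.25-fold). Ccng1, which encodes cyclin G1, stood at 8382 and 40012 (4.77-fold), and Btg2, an antiproliferative gene, at 703 and 3969 (5.64-fold). The death-related genes followed the same direction, with Perp from 12.8 to 82.0, Fas from 150 to 538, Bax from 2234 to 6028 and Bbc3 from 142 to 486. The level of Trp53 itself was 4183 at day 0 and 6065 at day 1, a log2 ratio of 0.54, within 2-fold. Mdm4, which encodes the other p53 inhibitor of this family, was the single member below 0, at 1465 and 1299. The median of the list was 1.68 in wildtype and 1.47 in EMD-/y progenitors over the same days. From day 1 to day 2, which shares the day 1 samples, the median of the same genes in Δ95–99 progenitors was -0.27, with Mdm2 at a log2 ratio of -0.64 and Trp53inp1 at -0.46.

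Cell cycle genes proper were level between the days. Of 16 cyclins and cyclin-dependent kinases 0 were past 2-fold in either direction. The same count was 0 of 37 for DNA replication and 0 of 40 for mitosis and cytokinesis. It was 0 of 19 for homologous recombination and 0 of 10 for E2F factors and their partners. Over all genes 7.32% were higher and 6.69% lower, so a count of 0 says little for the shorter lists. Ccnd1 (cyclin D1, which passes mitogen signals to the cell cycle) stood at 11584 and 11552, Cdk1 (the mitotic kinase) at 3568 and 2985, and Mcm5 (a subunit of the replicative helicase) at 4057 and 4058. Mki67, the proliferation antigen, stood at 13211 and 9042, a log2 ratio of -0.55. The medians of the cyclin, replication and mitosis lists were 0.00, 0.15 and 0.01. Over the same days they were -0.93, -0.77 and -0.91 in wildtype progenitors, where 7 of 16, 9 of 37 and 14 of 40 members were at least 2-fold lower against 10.3% of all genes in that table. In EMD-/y progenitors they were -0.82, -0.65 and -0.66. In the other transduced lines they were closer to 0, at -0.04, 0.23 and -0.02 in +EMD, -0.02, 0.16 and 0.02 in Q133H and -0.24, -0.08 and -0.28 in S54F progenitors.

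Of 10 CDK inhibitors and pocket proteins 3 were higher and 7 were within 2-fold, with a median of 0.23. Cdkn1a (p21, a p53 target that blocks cyclin-dependent kinases) stood at 7794 and 29844 (3.83-fold), Cdkn1c (p57, which acts in muscle differentiation) at 648 and 2106, and Rb1, which encodes the retinoblastoma protein that holds E2F factors, at 1307 and 4655. Among the members within 2-fold were the inhibitors Cdkn2a (log2 ratio -0.39) and Cdkn2c (0.39). The Cdkn1c ratio was 3.25-fold, beside 22.6-fold in wildtype. One day later the cell cycle lists of Δ95–99 progenitors were lower. Between days 1 and 2, 37 of the 40 mitosis genes and 17 of the 37 replication genes were at least 2-fold lower, in a table where this held for 5.24% of all genes. The medians were -1.74 and -0.93. Cdk1 then had a log2 ratio of -1.57, Plk1 of -2.06 and Ccnd1 of -1.29.

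The muscle programme was also close to level at day 1. Of 46 sarcomere genes listed, 38 were past the minimum, and of these 4 were at least 2-fold higher and 3 lower, with a median of 0.15. These counts lie near the shares over all genes, 7.32% higher and 6.69% lower. Myh3, the embryonic myosin heavy chain, stood at 3644 and 4166, Acta1 (skeletal α-actin) at 5178 and 6069, Actc1 (cardiac α-actin, expressed in embryonic muscle) at 5698 and 7836, and Ttn (titin) at 3157 and 3549. The 4 higher were Tnni2 (180 and 464) and Tnnc2 (286 and 618), which encode fast troponins, Cryab (3237 and 8108), a small heat shock protein bound to desmin, and the light chain Myl4 (524 and 1128). The 3 lower were Csrp3 (24.7 and 8.30), Myh8 (561 and 225) and Myom1 (144 and 70.5). The other 7 members in the table lay below the minimum.

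In wildtype progenitors 40 of 45 sarcomere genes were at least 2-fold higher at day 1, where 12.5% of all genes were, and the median was 2.34. The median was 1.53 in EMD-/y, 1.64 in +EMD, 1.28 in S54F and -1.36 in Q133H progenitors. Genes of excitation-contraction coupling had the same pattern, with a median of 0.06 in Δ95–99 and 2.06 in wildtype. Ryr1, the calcium release channel, stood at 639 and 549, Atp2a1, the calcium pump of the reticulum, at 1050 and 1104, and Cacna1s, the voltage sensor, at 174 and 85.0. Of 16 fusion and adhesion genes past the minimum 15 were within 2-fold, and Boc, a cell surface receptor that promotes myogenesis, was lower (387 and 164, log2 ratio -1.23). Mymk and Mymx, which encode myomaker and myomixer, stood at 1820 and 2284 and at 234 and 325, and the log2 ratios of both (0.33 and 0.47) were set beside 2.27 and 3.0 in wildtype.

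The contractile genes of Δ95–99 progenitors were far higher on the following day. From day 1 to day 2, 35 of the 38 sarcomere genes and 17 of the 18 coupling genes were at least 2-fold higher, in a table where this held for 8.95% of genes, and the medians were 4.15 and 3.05. Acta1 had a log2 ratio of 4.64, Myh3 of 4.33 and Tnnc2 of 4.23. The upstream sequence of Acta1 is shown because it belongs to the contractile genes that were level at day 1 and higher at day 2 and holds a CAGCTG E-box, the core bound by myogenic bHLH factors. It covers the 250 bases before the RefSeq start at chr8:123894776-123895025 (GRCm38.p6, minus strand), written 5′ to 3′ with the E-box in capitals.
Acta1: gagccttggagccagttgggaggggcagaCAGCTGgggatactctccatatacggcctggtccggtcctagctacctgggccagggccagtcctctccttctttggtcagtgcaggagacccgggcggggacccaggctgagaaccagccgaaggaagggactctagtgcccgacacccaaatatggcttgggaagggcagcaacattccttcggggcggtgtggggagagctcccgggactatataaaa
The E-box was found, on either strand, in the same window of 11 of 29 sarcomere genes with a sequence (37.9%) and of 3979 of 27025 genes in all (14.7%).

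**Figure D2:**
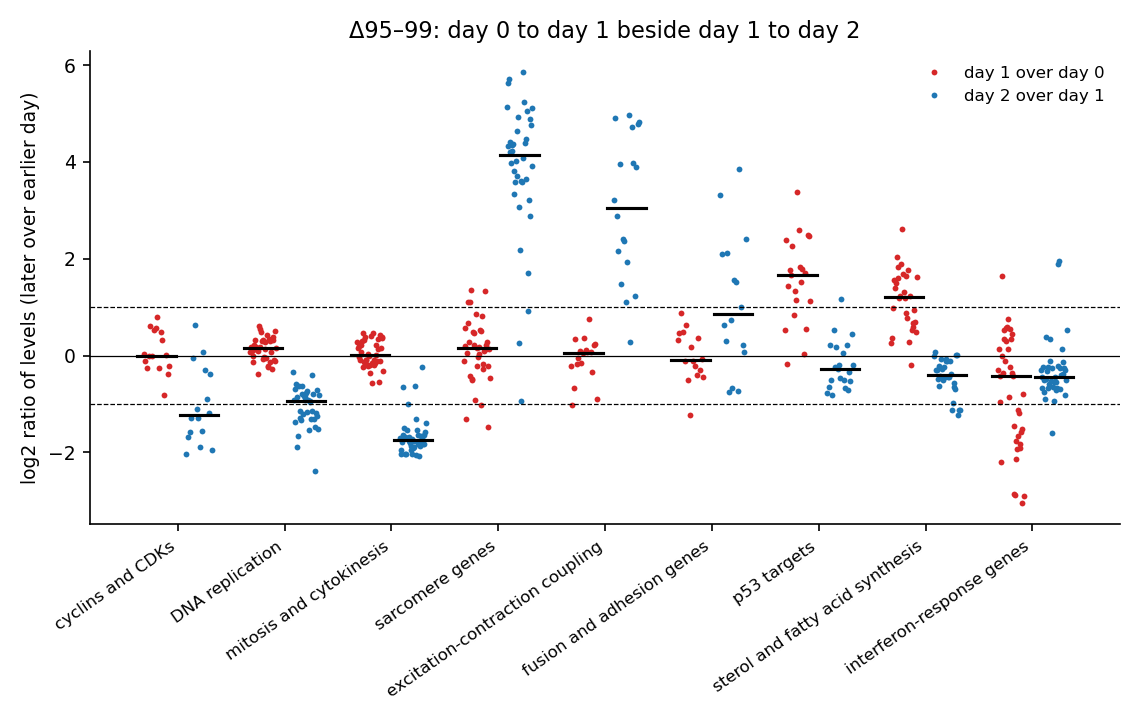
Log2 ratio of each member (points) and the median (bar) of 9 gene lists in Δ95–99 progenitors, day 1 over day 0 in red and day 2 over day 1 in blue, for members past the minimum in the first table; both steps share the day 1 samples. The cell cycle lists centre near 0 and then at -1.23, -0.93 and -1.74, the sarcomere list at 0.15 and then 4.15.

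Regulators of myogenesis were uneven. Myog, which encodes myogenin and marks commitment, stood at 6788 and 10798, 1.59-fold, and was 4.79-fold higher in wildtype over the same days. Mef2c, a partner of the myogenic factors that activates contractile genes, was lower, at 320 and 100 (log2 ratio -1.67). Wildtype had 1.46 and EMD-/y 0.95, and +EMD, S54F and Q133H had 0.04, 0.44 and -1.95. The next day Mef2c had a log2 ratio of 4.73 in Δ95–99. The Id genes, which encode inhibitors of bHLH factors, were all at least 2-fold lower, with Id3 at 4966 and 1580, Id2 at 3915 and 1467 and Id1 at 1979 and 857, and they had the same direction in wildtype (-1.98, -2.27 and -1.62). Myod1, Myf5 and Pax7 had log2 ratios of -0.12, 0.75 and 0.04. Of 19 regulators past the minimum, 0 were 2-fold higher and 4 were lower. Among muscle enzymes, Pygm, the glycogen phosphorylase of muscle, stood at 159 and 1136 (7.13-fold) and Pgam2 at 38.5 and 157, whereas Ckm, the muscle creatine kinase, stood at 51.8 and 69.3. Of 12 such enzymes 3 were higher and 1, Gpd1, was lower. At the neuromuscular synapse, Chrnd, a subunit of the acetylcholine receptor, was past 2-fold (531 and 1156), and Sgca (α-sarcoglycan, 210 and 461) and Sspn (sarcospan, 992 and 373) of the dystrophin complex differed in opposite directions.

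Genes of sterol and fatty acid synthesis, most of which are activated by SREBP transcription factors when sterols are scarce, were higher at day 1. Of 30 members 17 were at least 2-fold higher, against 7.32% of all genes, 0 were lower and 29 had a ratio above 0. The median was 1.21. Msmo1 (a sterol demethylation enzyme) stood at 900 and 5509, 6.12-fold, Idi1 (isopentenyl diphosphate isomerase) at 1095 and 4491, Cyp51 (lanosterol demethylase) at 1345 and 4973, and Fdps (farnesyl diphosphate synthase) at 1413 and 5041. Hmgcs1, the synthase at the entry to the mevalonate pathway, stood at 1603 and 4728. Insig1, a sterol sensor and itself a target of SREBP, stood at 769 and 2610. Genes of fatty acid synthesis within the list were closer to level, with Fasn at 0.59, Acly at 0.52 and Acaca at -0.19. The list median lay between 1.02 and 1.59 in the 5 other lines, and the following day it was -0.40 in Δ95–99. Hmgcs1 was the single member of the list whose 250 upstream bases held the letters TCACNCCAC of a sterol regulatory element on either strand, out of 19 with a sequence (5.26%), against 331 of 27025 genes (1.22%). The window lies at chr13:119690101-119690350 (GRCm38.p6, plus strand), with the match in capitals 137 bases before the start.
Hmgcs1: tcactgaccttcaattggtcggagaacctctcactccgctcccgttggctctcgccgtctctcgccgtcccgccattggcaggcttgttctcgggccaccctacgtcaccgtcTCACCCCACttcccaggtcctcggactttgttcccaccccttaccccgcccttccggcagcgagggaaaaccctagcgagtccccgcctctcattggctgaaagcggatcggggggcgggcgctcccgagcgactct

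Hypoxia targets were higher as well, in 9 of 19 members past the minimum against 7.32% of all genes. The list had 1 lower member and a median of 0.91. Egln3, the prolyl hydroxylase that turns over HIF, stood at 479 and 1388, Bnip3, a mitophagy receptor, at 659 and 2009, Ddit4, an inhibitor of mTORC1, at 568 and 1737, and Epas1 (HIF-2α) at 9.01 and 39.8. Hif1a was within 2-fold, at 3912 and 4624, and Car9 stood below the minimum at 5.73 and 7.94. Stc2, a secreted glycoprotein, was the member that was lower (428 and 155). The medians of the other lines lay between 0.52 and 1.16. The core of the hypoxia response element, ACGTG, was present on either strand in the upstream windows of 10 of 16 members (62.5%) and of 4998 of 27025 genes (18.5%). The windows of Egln3 (chr12:54203875-54204124, minus strand) and Bnip3 (chr7:138909507-138909756, minus strand) are given since both were past 2-fold and hold it. In Bnip3 the 2 matches are the overlapping parts of 1 palindrome.
Egln3: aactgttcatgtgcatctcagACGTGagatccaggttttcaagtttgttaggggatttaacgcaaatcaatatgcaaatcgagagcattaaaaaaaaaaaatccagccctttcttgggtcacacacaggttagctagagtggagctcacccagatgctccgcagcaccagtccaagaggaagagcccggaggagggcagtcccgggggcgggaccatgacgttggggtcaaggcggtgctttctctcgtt
Bnip3: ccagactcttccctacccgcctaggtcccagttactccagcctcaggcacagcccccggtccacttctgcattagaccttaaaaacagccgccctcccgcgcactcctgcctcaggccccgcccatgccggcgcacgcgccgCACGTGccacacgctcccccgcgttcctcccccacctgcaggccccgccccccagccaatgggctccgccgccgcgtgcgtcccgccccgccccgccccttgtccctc

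Stress lists outside p53 were mixed. Of 21 targets of NRF2, the antioxidant regulator, 7 were at least 2-fold lower and 0 higher, with a median of -0.47. Over all genes 6.69% were lower and 7.32% higher. Nqo1, a quinone reductase, stood at 3817 and 904, Slc7a11, the cystine transporter, at 471 and 84.9, and G6pdx, which supplies NADPH, at 4426 and 1670, while Hmox1 stood at 1978 and 3059. Without members that have a near copy the median was -0.77. Of 25 genes of the ATF4 and unfolded-protein response 2 were higher (Sesn2, 706 and 2836, which p53 also activates, and Ddit3, 127 and 318) and 1 was lower (Asns, 1800 and 800). The counts for this list lie near the shares over all genes. The cold-inducible RNA-binding genes Cirbp (867 and 263) and Rbm3 (19360 and 6140) were both past 2-fold lower, and Hspa1a (159 and 334), Hsph1 (1836 and 4091) and Dnajb1 (1581 and 3248) of the heat shock genes were past 2-fold higher. The part of temperature in these values was not tested. In glycolysis, Hk2 stood at 1668 and 483, Pfkl at 1374 and 3183 and Ldha at 21089 and 21508. The Gapdh level (23027 and 6604) is uncertain, as set out below. Respiratory chain genes had a median of 0.16, with 73 of 75 within 2-fold.

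Of 39 genes of the interferon response past the minimum 16 were at least 2-fold lower, against 6.69% of all genes. Ifit1 (482 and 1508) was the 1 higher member, and the median was -0.43. The lower members were mainly guanylate-binding proteins and immunity-related GTPases, which γ-interferon induces. Gbp2 stood at 21981 and 3033 (7.24-fold lower), Gbp4 at 13517 and 1846, Iigp1 at 44346 and 11786 and Igtp at 12620 and 5821. Socs1, a feedback inhibitor of the receptor's kinases, stood at 853 and 103 (8.21-fold lower), and Ciita, the transactivator of MHC class II, at 458 and 60.8. Irf1 (5502 and 2850, log2 ratio -0.95) was within 2-fold. The log2 ratios of Rsad2, Ifit3, Isg15 and Mx2 were 0.35, 0.35, 0.58 and 0.76, all within 2-fold. In wildtype progenitors 21 of 38 were at least 2-fold lower and the median was -1.18. In EMD-/y progenitors, where 9.42% of all genes were 2-fold lower and 12% higher, 28 of 39 members were lower and the median was -1.46. The Q133H median was 1.25. The summed level of the 41 members was 212219 at day 0 and 80859 at day 1 in Δ95–99.

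A γ-activated site, TTCNNNGAA, a motif of interferon-induced promoters, was found in the upstream windows of 12 of 31 members with a sequence (38.7%) and of 2197 of 27025 genes (8.13%). The letters read the same on both strands. The windows of Igtp (chr11:58199306-58199555, plus strand) and Irf1 (chr11:53769764-53770013, plus strand, the first of its 2 listed starts) are shown as an induced GTPase and an induced transcription factor of the same list. The match lies 45 bases before the start of Igtp and 90 before that of Irf1.
Igtp: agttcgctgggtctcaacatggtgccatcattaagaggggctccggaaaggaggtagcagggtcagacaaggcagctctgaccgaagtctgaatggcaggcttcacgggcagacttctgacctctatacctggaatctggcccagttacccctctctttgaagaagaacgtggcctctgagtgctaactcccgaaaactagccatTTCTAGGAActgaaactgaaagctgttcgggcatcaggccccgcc
Irf1: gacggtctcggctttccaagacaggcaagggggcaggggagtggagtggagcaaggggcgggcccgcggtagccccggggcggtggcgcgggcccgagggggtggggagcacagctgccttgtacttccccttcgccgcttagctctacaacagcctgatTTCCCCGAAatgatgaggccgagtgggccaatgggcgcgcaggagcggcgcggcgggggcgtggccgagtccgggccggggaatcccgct

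Antigen presentation followed, with 11 of 27 members at least 2-fold lower, against 6.69% of all genes, and 0 higher. All 27 ratios were below 0, at a median of -0.72. H2-Aa (615 and 67.7) and H2-Ab1 (1213 and 259), the chains of an MHC class II molecule, and Cd74 (929 and 202), its invariant chain, had the lowest ratios together with H2-T23. Psmb8, a subunit of the immunoproteasome, stood at 4979 and 2413, Tap1, the peptide transporter, at 8443 and 5534, and B2m, the light chain of class I, at 61150 and 57904. H2 genes resemble each other closely, and how reads were divided among them is not given in the sources used here. Among chemokines, Cxcl9 (263 and 9.75, 24.6-fold lower) and Cxcl10 (1406 and 350), both induced by interferon, were lower together with Cxcl14 (1290 and 96.7), whereas Ccl5 stood at 14.1 and 92.5 and Ccl2 at 89.9 and 114. Ccl5 was higher in wildtype (2.00) and level in EMD-/y (-0.05).

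**Figure D3:**
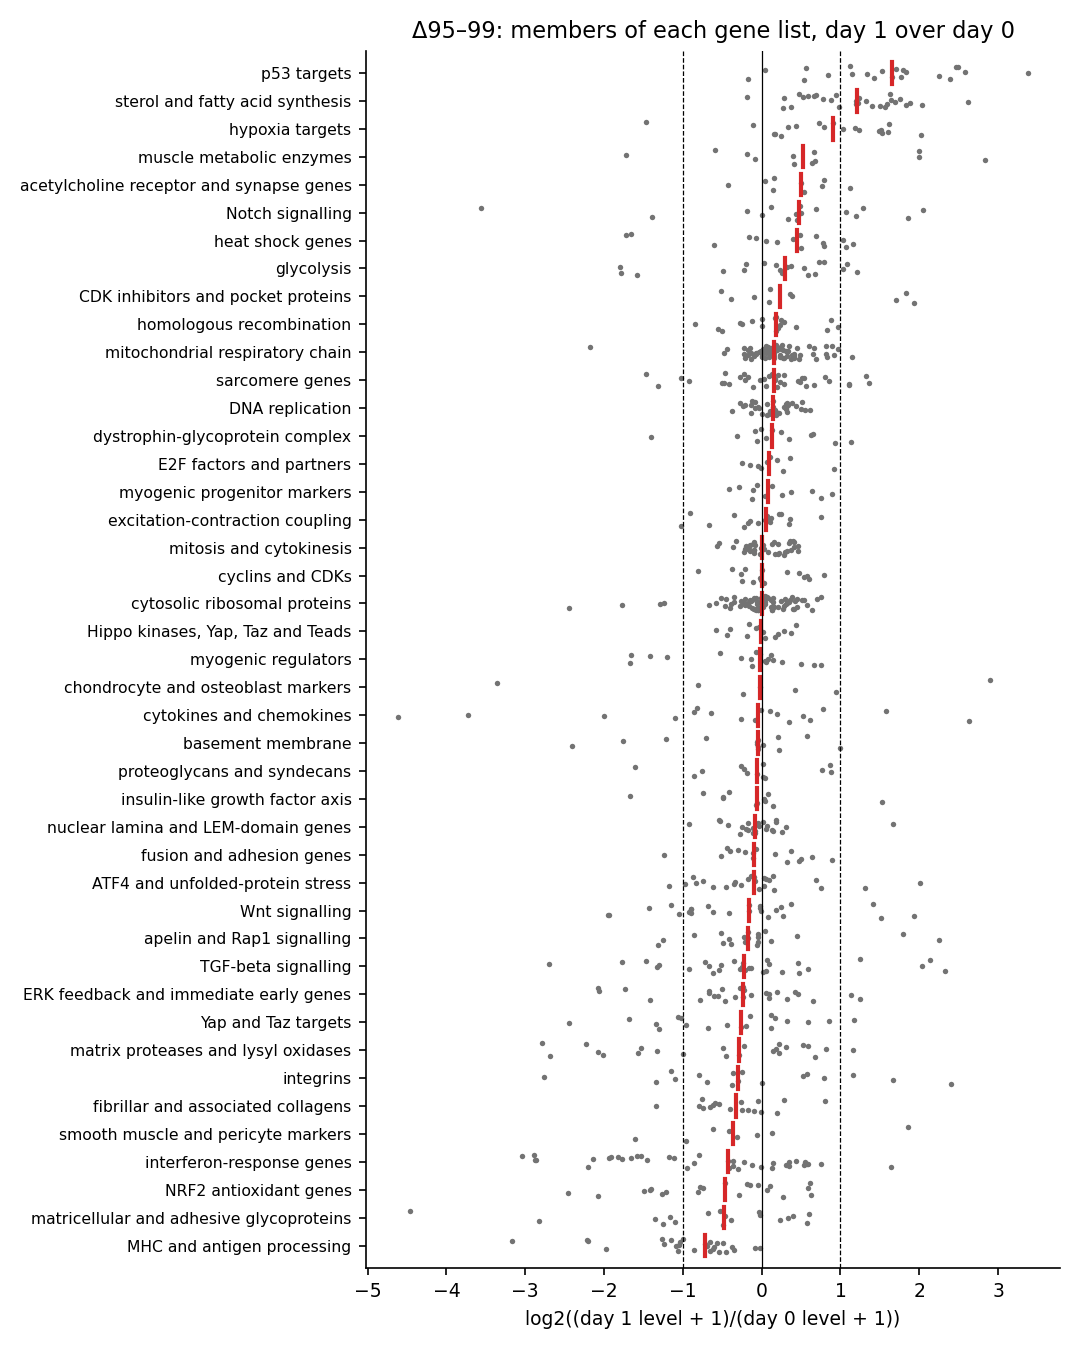
Log2 ratio of day 1 over day 0 in Δ95–99 progenitors for every member past the minimum (grey points) of the lists with at least 7 such members, ordered by their median (red bar); dashed lines mark 2-fold. p53 targets (1.66), sterol genes (1.21) and hypoxia targets (0.91) stand at the top and antigen processing (-0.72) at the bottom.

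Among genes of the extracellular matrix, 6 of 18 adhesive and matricellular glycoproteins were at least 2-fold lower, against 6.69% of all genes. Of the rest 0 were higher and 12 were within 2-fold, and the list median was -0.48. Ccn2, the connective tissue growth factor and a target of Yap, stood at 5159 and 234, 22-fold lower. Its log2 ratio was -4.46, against -2.05 in wildtype and -1.75 in EMD-/y. In the other transduced lines it was -4.04 (+EMD), -2.74 (S54F) and -2.15 (Q133H). Tnc (tenascin C) stood at 14078 and 1993, Thbs1 (thrombospondin 1) at 72089 and 30340, and Spp1 (osteopontin) at 122176 and 47826. Fn1, fibronectin, stood at 45503 and 32325, within 2-fold. The fibrillar collagens were closer to level, with Col3a1 at 18953 and 17663 and Col1a1 at 1555 and 1776, and Col6a3 (2465 and 971) was the one of 18 collagens that was past 2-fold. The laminin chains Lama4 (52.5 and 9.07) and Lamb3 (238 and 69.6) were lower past 2-fold.

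Matrix proteases, their inhibitors and lysyl oxidases had 8 lower members and 1 higher of 23, where 6.69% and 7.32% of all genes were. Plaur, the receptor of urokinase, stood at 1186 and 253, Timp3 at 10841 and 2573, Timp1 at 6504 and 2193, and Lox, which cross-links collagen, at 7304 and 2518. Mmp9 was low on both days, at 16.5 and 1.72. Of 17 integrins 4 were lower and 3 higher. Itga11, a collagen receptor, stood at 77 and 10.5, where wildtype had a log2 ratio of 1.73 and EMD-/y of 1.49. The other transduced lines had Itga11 ratios below 0, at -1.82 in +EMD, -1.13 in S54F and -2.01 in Q133H. Itga4 stood at 970 and 383. Itga2 (3.37 and 22.2) and Itga8 (6.92 and 24.1) were higher at low levels. The laminin receptor Itga6 stood at 3062 and 2484. Among proteoglycans, Vcan (versican) stood at 7663 and 14010 and Sdc4 (syndecan 4) at 4724 and 4540, and 1 of 13, the low gene Fmod, was past 2-fold.

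Signalling lists contained members in both directions. The Hippo kinases, Yap, Taz and the Tead factors were level, with 0 of 14 past 2-fold and Yap1 at 2958 and 3060. With 7.32% of all genes higher and 6.69% lower, this count says little for so short a list. Their targets had 6 lower members and 1 higher of 19, at a median of -0.26. Ankrd1, a sarcomere-associated repressor, stood at 13480 and 5470, Tgfb2 at 610 and 190 and F3 (tissue factor) at 225 and 88.3, and the higher one was Ptpn14 (3968 and 8923). In TGF-β signalling Inhba, an activin subunit, was lower (5640 and 2253), and Gdf15, a stress cytokine that p53 can induce, was higher (84.6 and 376). Mstn, the inhibitor of muscle growth, was listed at 3.62 and 17.9. In the Notch list 5 of 16 members were higher and 2 lower. Notch3, a receptor, stood at 1059 and 3846, Dll1, a ligand, at 326 and 747, and Hey2, a target, at 21.7 and 92.7, while Lfng, a glycosyltransferase that tunes the receptors, stood at 188 and 15.0 (11.8-fold lower). Wildtype and EMD-/y had log2 ratios of 1.65 and 1.91 for Notch3 and of -3.16 and -2.70 for Lfng.

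Of the immediate early genes and ERK feedback genes, 4 of 27 were lower and 2 higher, against 6.69% and 7.32% of all genes. In wildtype and in EMD-/y 10 of 27 were lower, where 10.3% and 9.42% of all genes were. The count of lower members was 9 in +EMD, 6 in S54F and 1 in Q133H. Myc stood at 1866 and 563, Hbegf at 540 and 127 and Egr2 at 431 and 102. Fosl1, a member of the AP-1 family, was level at 2093 and 2230, beside log2 ratios of -1.18 in wildtype and -1.03 in EMD-/y. In the Wnt list Wnt9a (223 and 852) and Wnt10b (72.1 and 18) were at opposite ends, and Axin2, a feedback target, stood at 14.1 and 7.11 against a log2 ratio of 3.50 in wildtype. The growth factor Igf2 stood at 22352 and 21250 and Igfbp5, which binds it, at 8464 and 8934. Their wildtype ratios were 1.74 and 1.92, and both were higher in Δ95–99 one day later (1.94 and 1.42). Igf2r, the receptor that clears Igf2, was past 2-fold (3228 and 9342). Apln, the ligand of the apelin receptor, stood at 231 and 92.6.

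At the nuclear envelope, where emerin acts, 24 of 25 listed genes were within 2-fold. Over all genes 7.32% were higher and 6.69% lower, so few of 25 would be past 2-fold by these shares. The count therefore says little about this list in particular. Lmna, which encodes lamins A and C, stood at 26768 and 22224, Lmnb1 at 3002 and 2778, Tmpo, a LEM-domain protein, at 8310 and 9175, and Syne1 (nesprin 1) at 1011 and 1063. Hdac3, the deacetylase that emerin binds, stood at 2021 and 1950, and Banf1, which emerin and other LEM-domain proteins bind, at 1975 and 2046. Tmem38a, a channel of the sarcoplasmic reticulum and nuclear membrane of muscle, was the exception, at 517 and 1646 (3.18-fold). Lmnb1 and Syne1 had wildtype log2 ratios of -0.90 and 1.60.

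Outside the lists, the genes with the highest ratios at a larger level of at least 100 included Evpl (6.41 and 369), which encodes envoplakin of the epithelial cell envelope, Sec14l5 (3.12 and 161), St14 (11.2 and 280), the membrane protease matriptase, Kcnj4 (8.30 and 150), a potassium channel, and Ltb4r2 (26.3 and 385), a leukotriene receptor. Both other lines gave ratios above 0 for each of them, with log2 ratios of 3.96 for Evpl and 4.46 for St14 in wildtype and of 4.28 and 4.49 in EMD-/y. Rai2 (5.96 and 101) was higher in wildtype (3.47) and, to a lower ratio, in EMD-/y (1.92). The lowest ratios belonged to Serpina3g (291 and 12.3), a serine protease inhibitor, Unc93a (137 and 5.71), Mchr1 (120 and 7.35), Mpeg1 (199 and 14.0), which encodes perforin-2, Batf2 (1007 and 90.9), an interferon-induced transcription factor, and Il12rb1 (401 and 39.6), a chain of the interleukin 12 receptor. Cthrc1, a secreted collagen-associated protein, stood at 368 and 38.6, a log2 ratio of -3.22 beside -1.29 in wildtype and -0.97 in EMD-/y.

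The transition was then set beside those of the other lines, with which it shares no sample. Of 12855 genes past the minimum in both tables, 898 were at least 2-fold higher in Δ95–99, and 576 of them were also higher in wildtype, 64.1% of the Δ95–99 genes and 40.0% of the 1441 wildtype genes. For lower genes 447 were shared, 58.4% of 765 in Δ95–99 and 35% of 1277 in wildtype. Opposite directions were found for 92 and 64 of the Δ95–99 genes. With EMD-/y 642 higher genes were shared (68.9% of 932 and 46.1% of 1394) and 496 lower genes (59.4% of 835 and 41.2% of 1204). In the higher direction, +EMD shared 757 genes with Δ95–99 (82.5% of 918 and 60.0% of 1261) and Q133H shared 507 (57.4% of 884 and 69.9% of 725). These shares were not tested against each other.

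**Figure D4:**
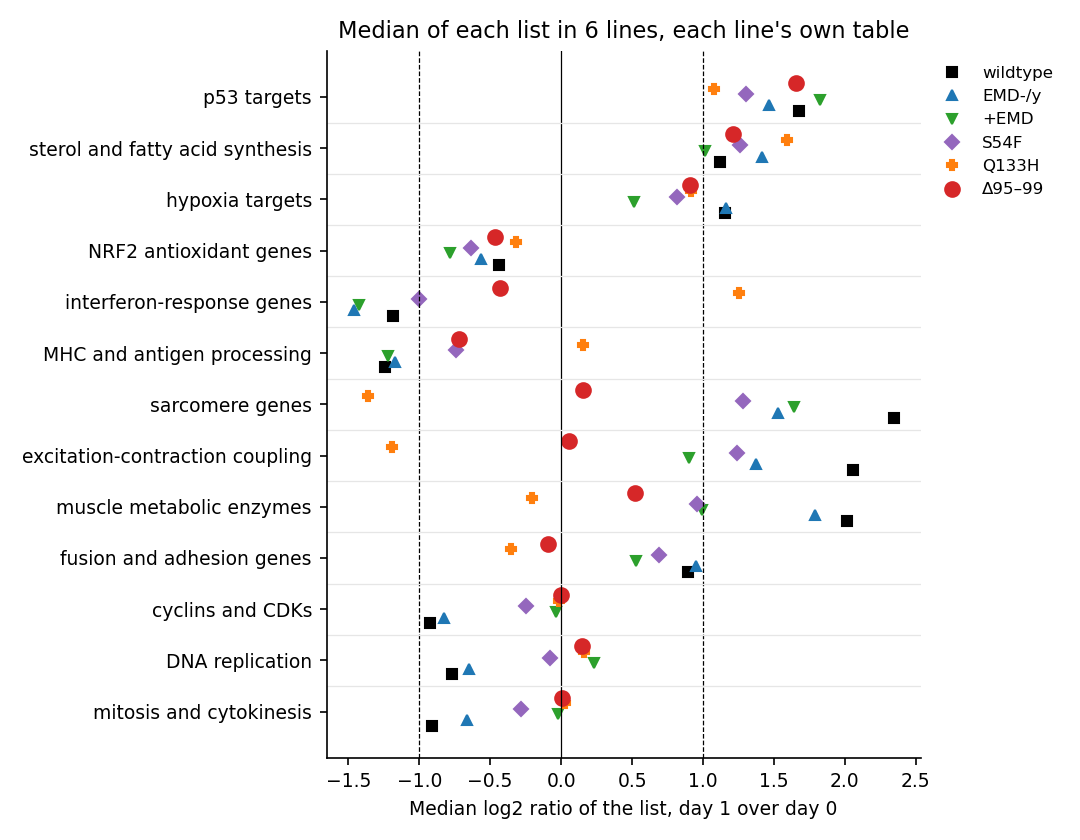
Median log2 ratio (day 1 over day 0) of 13 gene lists in Δ95–99 (red circles) and the 5 other lines, each from the line's own table and over members past the minimum there; dashed lines mark 2-fold. The p53 and sterol medians of all 6 lines lie above 1, the sarcomere median runs from -1.36 in Q133H to 2.34 in wildtype with 0.15 in Δ95–99, and the mitosis medians are 0.01 in Δ95–99, -0.02 in +EMD and 0.02 in Q133H.

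A set of genes went in opposite directions over the days in Δ95–99 and in the 2 lines without virus. Of the genes higher in Δ95–99, 92 of 898 were lower in wildtype and 109 of 932 in EMD-/y. These counts lie close to the shares over all genes past both minimums, 1277 of 12855 and 1204 of 13056. In +EMD, S54F and Q133H the opposite calls were 0 of 918, 1 of 920 and 8 of 884. Among all genes past both minimums, 869 of 12894, 884 of 13016 and 768 of 12868 were lower in those lines. Predicted genes, which the sequencing provider assembled from the reads and which carry no name, made up 1524 of the genes in the table. Of 756 past the minimum, 42.2% were past 2-fold (163 higher and 156 lower), against 12.3% of the 12559 others. Every other line had such an excess as well, at 43.4% against 21.4% in wildtype and 48.8% against 19.7% in EMD-/y. In +EMD, S54F and Q133H it was 41.0%, 44.5% and 34.6% against 15.8%, 14.9% and 10.8%. Of 150 predicted genes that were higher in Δ95–99 and past the minimum in EMD-/y, 99 (66.0%) were lower in EMD-/y, and of 141 that were lower in Δ95–99, 29 (20.6%) were higher there. Among the other genes these opposite calls were 10 of 782 (1.28%) and 30 of 694 (4.32%). Some named genes with many near-identical copies went the same way. The histone gene H2ac24 stood at 1.66 and 498 in Δ95–99 and at 684.5 and 15.5 in EMD-/y, Gapdh at 23027 and 6604 and, in EMD-/y, at 6891 and 36799, and Rps13 at 1969 and 361 and, in EMD-/y, at 522 and 1392. Genes for which no near copy was found also had opposite calls in EMD-/y, 2 of 637 higher and 22 of 575 lower genes. Atp5g2 is such a gene, with a log2 ratio of -2.18 in Δ95–99 and 1.97 in EMD-/y. The labels give no batch, and this grouping and the day cannot be told apart within Δ95–99. The log2 ratio of Gapdh was 2.06 in wildtype and 2.42 in EMD-/y, against -0.92 in +EMD, -1.52 in S54F and -1.62 in Q133H, and that of Rps13 was likewise above 0 in wildtype and EMD-/y and below 0 in the 4 transduced lines. The medians of the cyclin, replication and mitosis lists divide the lines the same way, being between -0.93 and -0.65 in wildtype and EMD-/y and between -0.28 and 0.23 in the transduced lines. The part of this grouping in the list medians was not tested.

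**Figure D5:**
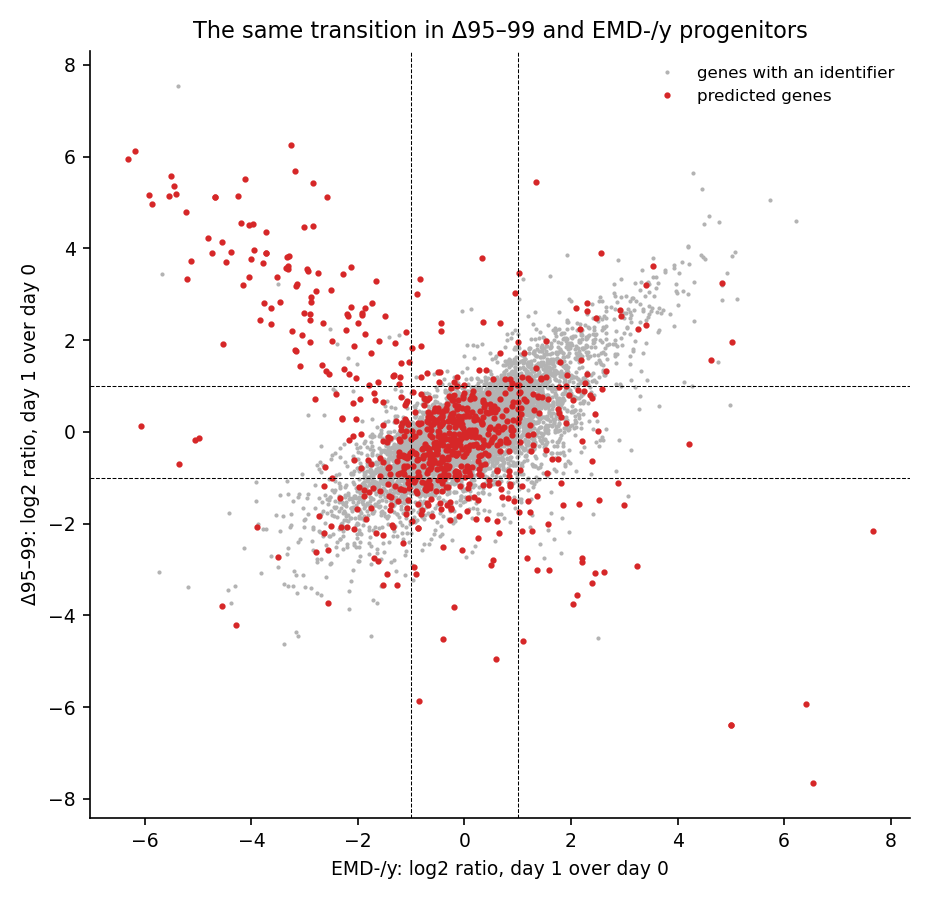
Log2 ratio of day 1 over day 0 in EMD-/y (horizontal) and Δ95–99 progenitors (vertical) for genes past the minimum in Δ95–99; predicted genes are red, others grey, and dashed lines mark 2-fold. Of the predicted genes higher in Δ95–99 and past the minimum in both lines, 66.0% lie in the upper left, where EMD-/y is lower. This share was 1.28% for the other higher genes past both minimums. Genes below the minimum in EMD-/y are drawn as well.

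Of the 150 named genes past 2-fold, those with a near-identical or overlapping transcript elsewhere in the annotation are uncertain, since the counting could have split or shared their reads. They are Cdkn1a, Cryab, Gpd1, Spp1, Timp3, Itga8, Notch3, Bnip3, Hmgcs1, Msmo1, Idi1, Cyp51, Hspa1a, Rbm3, Unc93a, H2ac24, Gapdh and Rps13 among the genes given above. For the sterol list, the median was 1.09 without such genes, and for the p53 list it was 1.77. The absence of a near copy does not make a gene certain, as Atp5g2 above shows.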

How the data were processed

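Libraries of poly-A RNA were read on the DNBseq platform. The sequencing provider filtered the reads with SOAPnuke, mapped them to the mouse genome (mm10) with HISAT2 and compared groups with DESeq2, according to the authors. The counting tool and the annotation are not given in the sources used here. The deposited signal values are normalised counts, 1 per gene and group, on the scale the authors' processing set within each table. The tables also hold the authors' fold changes, p-values and q-values for these comparisons, which were not used, so no p-value is given. The mean of both columns of the least counted genes took 6 values, between 0.152 and 0.180, and such genes were listed on both days. If these values stand for 1 read in 1 of the 6 libraries, which was inferred and not read from the table, the columns are not plain group means and the ratios of low genes may be moderated. Labelled replicates number 3 per group, and the methods name technical replicates of 2 biological ones without saying which is which.

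From the levels, log2 ratios were computed with a pseudocount of 1, and a gene was called at a 2-fold difference with a larger level of at least 10. No test was run, because 0 columns of the table belong to a single sample. Identifiers were matched to symbols through RefSeq (GRCm38.p6), for 15996 of 16018 numbered genes. The 48 gene lists and this transition were chosen with earlier results of these data known. Named genes are the key members of each list, up to 3 further members with the largest ratios, and outside the lists the 10 highest and 10 lowest ratios at a level of at least 100, without predicted genes and genes named by clone numbers. Other list members given in the text were chosen after their values were seen. Near copies are alignments of at least 150 bases and 97% identity between the longest transcripts of 2 genes (minimap2 2.31-r1302). Motifs were sought in the 250 bases before each RefSeq start. The alternatives were other pseudocounts, minimums, folds and scalings and leaving out predicted genes. Leaving out near copies and genes opposite in EMD-/y was added after seeing the data. The count rule was tested on simulated data. Python 3.11.15, numpy 2.4.6, pandas 2.3.3 and matplotlib 3.10.9 were used. Some items are not reported here.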

Additional observations from a re-analysis of the deposited data

How the results depend on the processing

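No paired analysis was possible because the level columns pool the replicates of a group and carry no replicate number, and for the same reason no replicate could be left out. The counts of genes past 2-fold (974 higher and 891 lower) depended most on the fold itself, with 1979 and 1921 at 1.5-fold and 461 and 380 at 3-fold. Under the other 9 alternatives both counts stayed within 1.5 times of these values. Of the 48 list medians, those past 1 in size kept their sign in the 7 alternatives. Those that moved by 0.20 or more were of glycolysis (0.63 without near copies) and NRF2 targets (-0.77 without near copies), and of the synapse list and of short marker lists of other cell types. Without a minimum the medians were 0.28 for synapse genes, 0.000186 for fibroblast, 0.00446 for endothelial, -0.0264 for macrophage, -0.13 for adipocyte and -0.23 for chondrocyte markers. With a minimum of 50 they were 0.86 for fibroblast, 0.16 for Schwann and -0.81 for chondrocyte markers. With a pseudocount of 5 they were 0.63 for endothelial and -0.44 for macrophage markers, and the latter turned from -0.73 to 0.64 without near copies, over few genes. Ratios of low genes may be understated. Depth per sample is unknown.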

Other observations

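Several groups that no comparison above covers were measured in the same table. Cytosolic ribosomal protein genes had a median log2 ratio of -0.00, with 0 of 78 at least 2-fold higher and 4 lower, and 62 of them have a near-identical copy. The apelin and Rap1 list had a median of -0.17, with 2 members higher and 2 lower of 20. These counts lie near the shares over all genes, 7.32% higher and 6.69% lower.

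Markers of mesenchymal lineages were uneven. Sp7, the osteoblast transcription factor osterix, stood at 98.8 at day 0 and 8.74 at day 1, Runx2 at 1633 and 933 and Sox9 at 999 and 847, while Bglap, which encodes osteocalcin and has near copies, stood at 4.89 and 43.0. The same directions were seen in wildtype progenitors, with log2 ratios of -2.97 for Sp7 and 4.46 for Bglap. Of 7 chondrocyte and osteoblast markers past the minimum 1 was higher and 1 lower. Ly6a, which is also induced by interferon, stood at 3779 and 1209 and Gsn at 2855 and 7030, and Pdgfra, the defining marker of fibro-adipogenic cells, stood at 17.3 and 14.2. The fibroblast list had 1 higher and 1 lower member of 4. Pparg, the adipogenic regulator, stood at 58.4 and 16.2 and Lpl at 583 and 236, the 2 lower members of 3 in the adipocyte list. Of the smooth muscle list, Acta2 stood at 39151 and 20208 and Tagln, the lower member, at 5009 and 1646, where wildtype had log2 ratios of 0.69 and -0.45. Its defining marker Myh11 stood at 6.87 and 2.13. The endothelial list had 1 higher member (Tek, 5.13 and 26.2) and 0 lower of 2, the macrophage list 0 higher and 1 lower (Csf1r, 18.4 and 3.51) of 2, and the Schwann and neural list 1 higher (Map2, 59.8 and 190) and 1 lower (Tubb3, 1549 and 616) of 4.

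The directions in Δ95–99 were opposite in few genes of the other transduced lines. Of 920 genes higher in Δ95–99 and past the minimum in S54F, 676 were higher and 1 was lower in S54F, and of 825 lower genes 554 were lower and 3 higher. In +EMD the opposite calls were 0 of 918 and 5 of 794, and in Q133H 8 of 884 and 20 of 768. Q133H is the line whose interferon-response median (1.25) and sarcomere median (-1.36) lay on the other side of 0 from the medians of wildtype. What sets these lines apart was not tested.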
